A study of Drosophila melanogaster with 2 samples.

Results

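The trithorax group genes keep developmental genes, above all the homeotic genes, in the active state once it has been set, and they act against the silencing Polycomb group. Their products work at chromatin in different ways: some methylate histone tails, some move or open nucleosomes with the energy of ATP, and some remove or read histone marks. The regions described here are those at which CG12236, a zinc finger protein with a BTB domain, was recovered near these genes by chromatin immunoprecipitation and sequencing in Drosophila melanogaster.

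The 10 genes described are trx, ash1, ash2, brm, mor, osa, kis, Utx, fs(1)h and trr, out of 13945 protein-coding genes on the 6 chromosome arms. They were taken by name and not by their signal, but in the knowledge of earlier results from these data, so their counts are given as a description and no test was made. The histone methyltransferases are trx, ash1 and trr, and ash2 encodes a non-catalytic subunit of methyltransferase complexes. Utx encodes a histone demethylase, brm, mor, osa and kis encode chromatin remodellers or their subunits, and fs(1)h encodes a BET family bromodomain protein. Each gene was examined over its body and 2 kb on either side, called its window here.

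The samples formed 1 group with 2 biological replicates (the labels call them 1 and 3), without a second condition. Both came from a transgenic line that stably carries CG12236 with green fluorescent protein at its C terminus, from whole embryos of both sexes aged 0 to 24 h, and an antibody against the fluorescent protein was used. All embryonic tissues are mixed in each sample, so binding in a few cells and weak binding in many cannot be told apart, and the labels do not name the promoter that drives the fusion. Each replicate had a list of 30000 ranked regions, as had both pooled, and the 2426 strongest pooled regions formed the authors' list of reproducible peaks by irreproducible discovery rate (IDR). That method works from the match of ranks between replicates, so a member's replicate ranks are a description of its peak and no independent support. Ranks of a single listed peak could still differ, as at trr (4457 in replicate 1 and 1126 in replicate 3). The signal of a region is the authors' value, on a scale that is not given, with a median of 12.6 in replicate 1, 16.7 in replicate 3 and 25.4 in the pooled list. Depth is unknown, the replicates shared 1 control alignment, and no control list was analysed. Coordinates are 1-based on dm6.

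All 10 windows held at least 1 IDR summit, 12 in all, against 20.8% of protein-coding genes. For 5 of the 10 genes an IDR summit lay inside the gene itself, against 7.54% of all protein-coding genes. For the other 5 none did. The strong peaks fell into 2 kinds. In trx, osa and kis the peak lay in an intron of the gene, as did 2 of the 3 at fs(1)h. Around ash1, trr, ash2, brm and mor they lay outside the gene and closest to the start site of a neighbour. Utx alone had its only IDR peak nearest to one of its own start sites and within a promoter, taken as 500 bp on either side of a protein-coding start site.

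The sequences under 6 of these summits are shown because they carry that contrast: 4 intronic peaks (trx, osa, kis and the stronger one of fs(1)h), the very strong peak beyond the end of ash1, and the peak shared by brm and its neighbour. Each runs over 60 bp on either side of the summit, 5′ to 3′ on the strand of the named gene, which is the reverse strand of dm6 in all 6, and was read from the Release 6 genome sequence of RefSeq. Capitals mark matches on either strand to the 5 short motifs listed further on, and a sequence without capitals has none in this stretch.
trx intron, chr3R:14283829-14283949: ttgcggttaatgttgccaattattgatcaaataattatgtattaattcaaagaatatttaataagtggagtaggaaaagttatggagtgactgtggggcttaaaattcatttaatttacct
osa intron, chr3R:17704355-17704475: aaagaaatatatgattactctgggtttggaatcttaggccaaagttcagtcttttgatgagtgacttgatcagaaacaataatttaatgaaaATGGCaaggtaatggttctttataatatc
kis intron, chr2L:223509-223629: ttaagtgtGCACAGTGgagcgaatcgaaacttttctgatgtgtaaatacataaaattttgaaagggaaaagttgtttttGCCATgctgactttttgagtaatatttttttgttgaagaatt
fs(1)h intron, chrX:8057407-8057527: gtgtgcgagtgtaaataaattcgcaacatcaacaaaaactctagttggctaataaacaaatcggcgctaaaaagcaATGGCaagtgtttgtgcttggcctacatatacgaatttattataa
beyond the end of ash1, chr3L:19590551-19590671: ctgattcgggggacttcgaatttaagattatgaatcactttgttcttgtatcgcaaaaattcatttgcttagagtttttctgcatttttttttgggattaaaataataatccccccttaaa
between brm and Arl1, chr3L:15982960-15983080: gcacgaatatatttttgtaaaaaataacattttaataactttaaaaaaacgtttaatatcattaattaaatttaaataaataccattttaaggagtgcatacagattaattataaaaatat

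Among the methyltransferase genes, trx had the clearest peak of its own. The trx product methylates histone H3 and keeps homeotic genes active. Its IDR peak (chr3R:14283766-14284015) had a pooled signal of 213 and rank 264, with rank 169 and signal 95.0 in replicate 1, and rank 383 and signal 118 in replicate 3. The summit lay 3014 bp downstream of the start site in intron 1, numbered like the others in the transcript where it is shortest. That intron is 6667 bp long, and the summit is 2320 bp from its nearest exon. All 5 annotated transcripts have it in an intron. A further 14 pooled regions lay in the window with signals from 18.2 to 54.1, so that the IDR peak stood alone above them. The next strongest, 8825 bp downstream of the start, ranked 3784. None of the 12 pooled summits in the gene body lay in its last 14.7 kb, where 75.9% of bases are coding, against 47.5% of the whole gene body. Over the 10 genes, the longest stretch of the body without a summit held a larger share of coding bases than the body in 7 and a smaller one in 3. The latter were brm (6.46% against 39.1%), ash2 (45.0% against 52.2%) and mor (67.9% against 75.9%). No such count is given for all genes, so no preference can be read from it. The body of Utx held only 1 pooled summit, and those of ash2, brm and mor 2 each.

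The window of ash1 held the strongest peak of the set, and it belonged by position to another gene. The ash1 product methylates histone H3 at active genes. The peak (chr3L:19590429-19590810) had a pooled signal of 1023 and rank 3, with signals of 337 in replicate 1 (rank 2) and 687 in replicate 3 (rank 3). Its summit lay 8144 bp downstream of the ash1 start, beyond the end of the gene, and 87 bp upstream of the start site of CG14100. The other 7 regions in the window had signals of 34.4 or less, and inside the ash1 body none exceeded 22.5. Signal was thus low in the ash1 body, while the region just beyond its 3′ end was among the 3 strongest of the pooled list. The plot of regions along each gene shows it as the highest point of the ash1 panel, at the right end, just past the shading.

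At trr the pattern was alike and weaker. The trr product methylates histone H3 in a complex that also holds Utx. The IDR peak (chrX:1879549-1879972, signal 93.5, rank 1478) lay past the 3′ end of trr, 13 bp into CG14818 and 10189 bp from the trr start. Its signal was 68.9 in replicate 3 (rank 1126) and 22.1 in replicate 1 (rank 4457). In the 2426 strongest regions of replicate 1 alone, trr was the only member with no summit in its window. The 3 pooled regions in the trr body had signals from 21.1 to 24.6.

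The subunit gene ash2, whose product is shared by several methyltransferase complexes, also had its IDR peak beyond its 3′ end. That peak (chr3R:24654800-24655223, signal 85.9, rank 1743) lay 148 bp upstream of CG6695 and within 500 bp of CG31125, and 3595 bp from the closest of the 3 ash2 start sites. It ranked 1065 in replicate 1 and 3203 in replicate 3, with signals of 43.8 and 37.6. At its own promoter ash2 had a region of signal 40.5, rank 6344, which is below the IDR list.

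Utx differed from the methyltransferase genes in having a promoter peak of its own. Its product removes the methyl marks that Polycomb complexes place on histone H3. The peak (chr2L:10276796-10277219) had a signal of 101 and rank 1270, with rank 1055 and signal 44.1 in replicate 1 and rank 1716 and signal 54.5 in replicate 3. The summit lay 153 bp downstream of one of 3 Utx start sites, and 1803 bp into the gene. Utx had only 3 pooled regions in its window, and the other 2 had signals of 18.6 and 19.6.

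**Figure D1:**
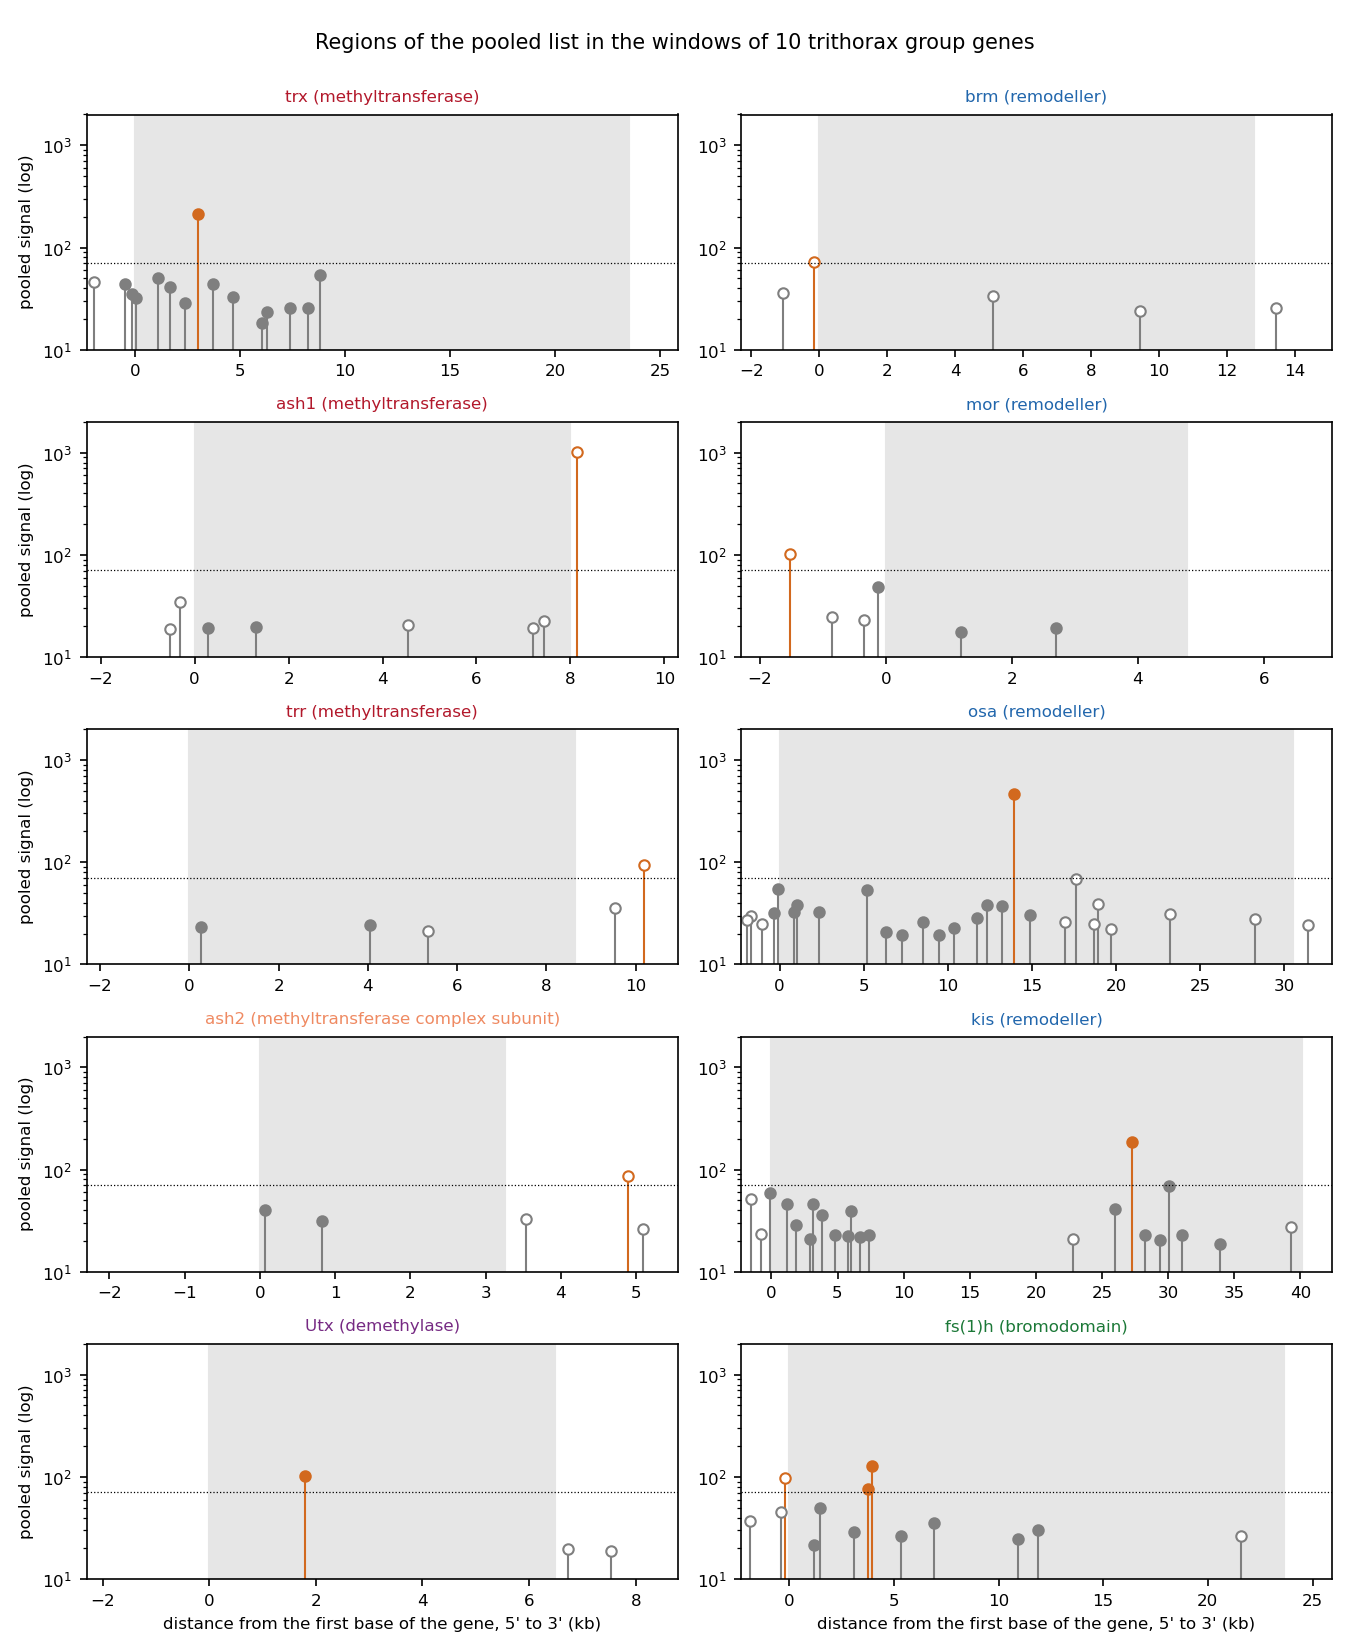
Pooled-list regions in the window of each gene, by distance of the summit from the first base of the gene in kb (x) and pooled signal on a log scale (y). Grey shading is the gene body, orange marks IDR peaks and grey other regions, a vertical line joins each point to the axis, filled points are nearest to a start site of the named gene and open points to that of another gene, and the dotted line is the lowest IDR signal of 70.5. The orange points of trx, osa and kis lie inside the shading and are filled, and those of ash1, trr, ash2, brm and mor lie outside it and are open.

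Among the remodeller genes, osa and kis had intronic peaks and brm and mor had peaks near a neighbour. The osa product is the subunit that marks one form of the Brahma remodelling complex. Its IDR peak (chr3R:17704259-17704578) was the second strongest of the set, with a pooled signal of 469 and rank 36, signals of 146 (rank 52) in replicate 1 and 324 (rank 33) in replicate 3. It lay 13935 bp downstream of the start in intron 4, which is 8067 bp long, and 3356 bp from the nearest exon. The window held 27 pooled regions, the most of any member, of which 14 were in introns and 9 in coding exons. One of them, at 17631 bp from the start, ranked 2596 with a signal of 67.9, just short of the IDR list.

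The kis gene encodes a chromodomain ATPase of the CHD family and is the longest member. Its IDR peak (chr2L:223357-223780, signal 184, rank 378) lay 27254 bp into the gene and 1607 bp upstream of the second of its 2 start sites, in an intron of 5 of its 6 transcripts (intron 12, 7230 bp). Its signal was 56.5 in replicate 1 (rank 610) and 126 in replicate 3 (rank 326). A region at 1179 bp downstream of the same start site ranked 2532 with a signal of 68.8, and its ranks were far apart, 1000 in replicate 1 and 23254 in replicate 3. The 22 pooled regions around kis lay on either side of a stretch of 15.4 kb, from 7.37 to 22.8 kb into the gene, that held none. Coding sequence made up 60.0% of that stretch and 41.8% of the gene body. The stretch was picked as the longest without a summit and has no counterpart over all genes, so no preference can be read here either.

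The brm gene encodes the ATPase of the Brahma complex. Its IDR peak (chr3L:15982808-15983231, signal 72.5, rank 2320) was the weakest of the set and lay between brm and the divergently transcribed Arl1, a small GTPase gene, whose start site is 266 bp away. The summit was 151 bp upstream of the closest of the 2 brm start sites and 115 bp upstream of that of Arl1, so it counts for the promoters of both. It had rank 2302 and signal 30.3 in replicate 1 and rank 2865 and signal 40.4 in replicate 3, which put it below the 2426 strongest regions of replicate 3.

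The mor gene encodes a core subunit of the same complex. Its IDR peak (chr3R:15974219-15974642, signal 102, rank 1248) lay 1518 bp upstream of mor in an intron of the neighbouring helicase gene Hel89B, 1133 bp downstream of that gene's start. Signals were 32.3 in replicate 1 (rank 1987) and 73.8 in replicate 3 (rank 996). The start sites of mor and Hel89B are 385 bp apart on opposite strands, and the strongest region at the mor promoter had a signal of 48.0 and rank 4714.

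The bromodomain gene fs(1)h held 3 IDR summits, more than any other member. Its product binds acetylated histones. The strongest (chrX:8057255-8057678, signal 127, rank 829) and the third (chrX:8057460-8057883, signal 76.1, rank 2147) are overlapping regions in an intron between 2 of its 5 start sites, and both matched the same region of replicate 1 (rank 1161, signal 41.9). In replicate 3 they ranked 741 and 1962. The second (chrX:8061418-8061841, signal 97.0, rank 1364) lay 194 bp upstream of the first fs(1)h start and 15 bp upstream of the divergent mys, which encodes an integrin subunit. Its signal was 74.9 in replicate 3 (rank 967) and 19.7 in replicate 1 (rank 5650).

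**Figure D2:**
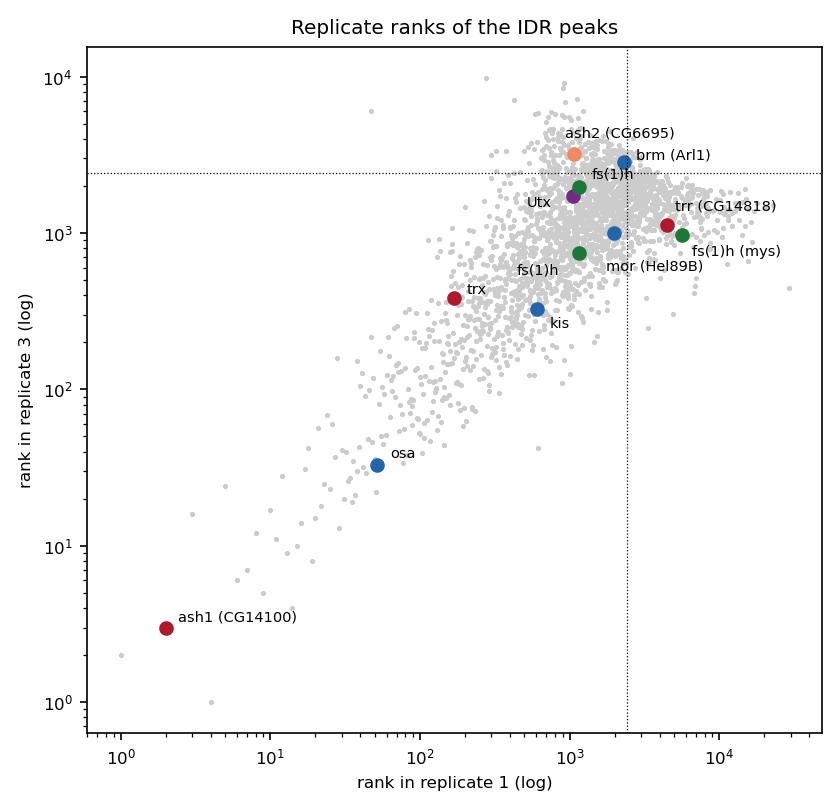
Rank in replicate 1 (x) and in replicate 3 (y), both on log scales, of the 2419 IDR peaks with a summit within 200 bp in both replicate lists (grey) and of the 12 in the windows of the trithorax group genes (coloured by role as in the plot of promoter signals, with the gene of the nearest start site in brackets where it is another gene). Dotted lines mark rank 2426. The peaks at ash1, osa, trx and kis lie towards the lower left, and those of trr and of fs(1)h at mys lie right of the vertical line.

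Of the 12 summits, 10 were matched within 200 bp by a region among the 2426 strongest of replicate 1, 10 by one among those of replicate 3 and 8 by both. Over all IDR peaks the shares were 78.8%, 87.7% and 67.7%. By position, 6 of the 12 were in promoters and 6 in introns, of which 5 were introns of the gene itself, against 45.3% and 36.7% of all IDR summits. The nearest start site was that of the trithorax group gene for 6 summits and that of another gene for the other 6. Counting only the former, 5 of the 10 genes had an IDR summit, against 11.7% of all genes. These were trx, Utx, osa, kis and fs(1)h.

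The share of genes with an IDR summit rose with the length of the window, and most members are long. It was 9.56% (95% Wilson interval 8.50 to 10.7%) for windows of up to 5 kb and 44.8% (41.0 to 48.7%) for those over 35 kb. The interval covers counting error only, and neighbouring genes can share a summit. The median window of all genes was 6.17 kb, while the members ranged from 7252 bp at ash2 to 44089 bp at kis. Among genes with windows between 0.5 and 2 times as long, the share with an IDR summit ranged from 17.8% for the length of ash2 to 41.0% for that of kis. In its window's highest signal, osa stood above 99.0% of the genes of like length, ash1 above 99.95%, trx above 93.7%, kis above 90.1% and brm above 68.8%.

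**Figure D3:**
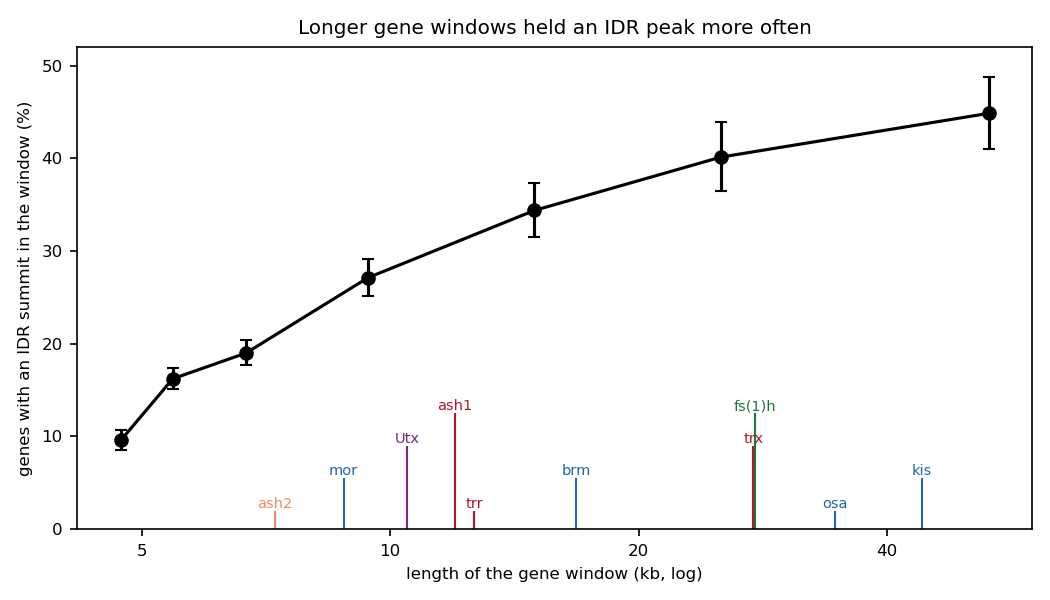
Percent of protein-coding genes with an IDR summit in the gene window (y), by the median window length of 7 length classes in kb on a log scale (x), with 95% Wilson intervals. Coloured ticks give the window lengths of the 10 trithorax group genes. The share rises from 9.56% to 44.8%, and all the members lie to the right of the shortest class.

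Methyltransferase and remodeller genes were then set side by side. The 3 methyltransferase genes and the 4 remodeller genes each had an IDR summit in every window, with 3 and 4 summits. The highest pooled signal of each window ran from 93.5 to 1023 with a median of 213 in methyltransferase genes, and from 72.5 to 469 with a median of 143 in remodeller genes, so the groups overlapped. The order of the medians depended on the 2 kb flanks: in the gene bodies alone they were 24.6 in methyltransferase and 109 in remodeller genes. Over all genes with any pooled region in the window, 2 kb flanks included, the median was 42.1. No such median is given for gene bodies alone. Per 10 kb of window there were 0.575 and 0.384 IDR summits, against 0.258 over the windows of all protein-coding genes, and 5.37 and 5.76 pooled regions, against 2.91. With only summits nearest to a gene's own start, both groups had 0.192 IDR summits per 10 kb. Pooled regions lay in introns for 35.7% of 28 in the methyltransferase windows and for 53.3% of 60 in the remodeller windows, against 36.6% of all pooled regions. The long genes carried these shares: all 10 intronic regions of the methyltransferase windows were in trx. Of 32 in the remodeller windows 14 were at osa, 16 at kis and 1 each at brm and mor. The one at mor lay in the intron of Hel89B, outside mor. The 2 highest signals of the methyltransferase genes were those beyond ash1 and in trx. With summits nearest to another gene's start left out, 1 of 3 methyltransferase genes (trx) and 2 of 4 remodeller genes (osa and kis) kept an IDR summit.

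At their own promoters the remodeller genes had the higher pooled signals. The strongest pooled region within 500 bp of an own start site had a signal of 43.7 at trx, 34.4 at ash1 and 23.1 at trr. At the remodeller genes it was 72.5 at brm, 58.4 at kis, 55.0 at osa and 48.0 at mor, so that in the pooled list the values did not overlap. All 4 remodeller genes and none of the 3 methyltransferase genes had a promoter region among the 5000 strongest, against 19.7% of all protein-coding genes. The regions at ash1 and brm are nearest to the starts of Taf6 and Arl1. Utx (101) and fs(1)h (97.0) lay above both groups, but the fs(1)h region is nearest to mys, and the strongest nearest to an own start of fs(1)h had a signal of 28.9. The value of ash2 (40.5) lay among the methyltransferase genes. The median over all 7229 genes with a pooled promoter region was 38.1.

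In either replicate alone the values of the groups overlapped. In replicate 1 the promoter signal was 28.8 at trx, 11.8 at ash1 and 13.9 at trr, and 30.3 at brm, 17.7 at mor, 32.2 at osa and 18.0 at kis. In replicate 3 it was 14.4 at trx, 24.2 at ash1 and 12.2 at trr, and 40.4 at brm, 38.0 at mor, 21.2 at osa and 37.3 at kis. In replicate 1 trx lay above mor and kis, and in replicate 3 ash1 lay above osa, so the separation of the pooled list held in neither replicate. The strongest promoter region is not the same region in every list: at trx it lay 489 bp upstream of the start in the pooled list and 37 bp downstream in replicate 3. At mor, the lowest remodeller value of the pooled list, it lay 133 bp upstream. No replicate 1 summit lay within 200 bp of it, and the strongest region of replicate 1 was 403 bp downstream of the start.

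**Figure D4:**
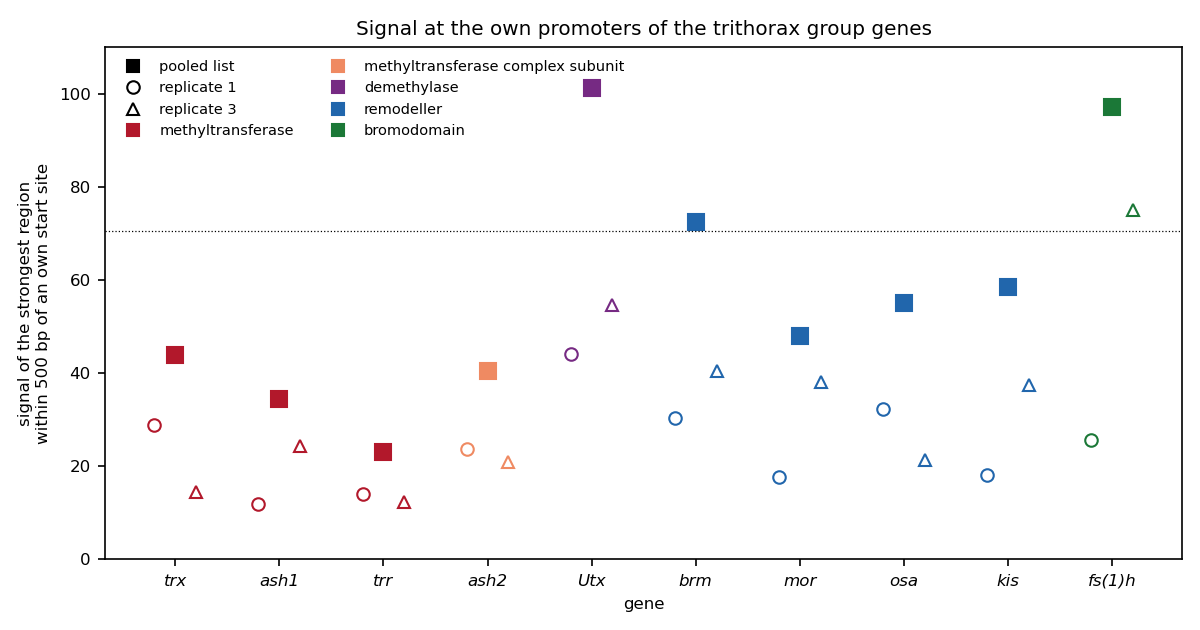
Signal of the strongest region within 500 bp of a start site of each gene (y, authors' scale) in the pooled list (squares), replicate 1 (circles) and replicate 3 (triangles), coloured by role. The dotted line is the lowest IDR signal in the pooled list, 70.5. The red squares, from 23.1 to 43.7, lie below the blue squares, from 48.0 to 72.5, while red and blue circles overlap, as do the triangles.

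Promoter peaks became common among the members only below the IDR list. At the IDR level 3 of the 10 (Utx, brm and fs(1)h) had a summit at an own promoter, against 10.2% of all genes. Among the 10000 strongest pooled regions 9 had one, against 31.6%, and in the whole pooled list all 10 did, against 51.8%. The member left out among the 10000 strongest was trr, at rank 17950. Of the 3 at the IDR level, the summits of brm and fs(1)h are nearest to the starts of Arl1 and mys.

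The 5 short motifs were searched, either strand, in the 100 bp on each side of the 12 summits and of all 2426 IDR summits. GAGAG, a core of the GAGA factor motif, was found at 2 of the 12 (trx and kis) and at 25.0% of all. GCCAT, the core bound by the Polycomb recruiter Pho, was found at 5 (1 each at Utx, osa and kis and 2 at fs(1)h) and at 27.7% of all. The E-box CAGCTG was found at 1 (fs(1)h) against 9.81%, CACTGTGC at 1 (kis) against 4.82%, and TATCGATA, the core of the DNA replication-related element, at none against 3.30%. None of these motifs contains another. The kis stretch printed above holds CACTGTGC, read there on the other strand as GCACAGTG, and GCCAT. The GC content within 100 bp had a median of 36.8% both in the 12 and in all IDR summits, and ran from 30.8% at trx to 47.8% at the summit between fs(1)h and mys.

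Among 27 further genes of the trithorax group and its complexes, 10 had an IDR summit in their window (37.0%, against 20.8% of all genes). For 4 of the 27 a summit was nearest to their own start (11.7% of all genes), and 3 had one at an own promoter (Trl, tna and skd, against 10.2% of all genes). The last 2 counts are near the share of all genes, and the median window of these 27 was 11.3 kb against 6.17 kb. The highest signals were in the windows of Caf1-55, a histone chaperone gene (731, rank 9), Trl, which encodes the GAGA factor (424, rank 46), tara (314, rank 94) and the remodeller gene Mi-2 (231, rank 213). The Trl peak is equally near to starts of Trl and CG42507, a tie that was counted as its own. The Caf1-55 peak is nearest to the start of Art3 and that of Mi-2 to Su(Tpl). The peaks of MRG15 (165, rank 495) and wds (126, rank 842) were likewise nearest to neighbours, Cp190 and egh. Lower signals were found at tna (113), corto (93.2), skd (80.5) and Bap55 (73.6), the last 2 nearest to CG12984 and CG6550. The 4 with a summit nearest to their own start were Trl, tna, tara and corto. Of the Brahma complex genes on this list, Bap55 had an IDR summit, and 20.8% of all genes had one. Snr1, Bap60, Bap111, Bap170, polybromo and e(y)3 had none, and their highest signals ran from 33.9 at Bap111 to 65.4 at Bap60.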

How the data were processed

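Chromatin was immunoprecipitated from 2 biological replicates of embryos (labelled 1 and 3). Per the labels, chromatin was sonicated to 200 to 800 bp. The antibody field of the labels names CG12236, and the description names GFP, which is followed here. Each deposited dm6 list is in narrowPeak format, per the note deposited with each sample: column 7 is the authors' signal, column 9 the authors' −log10 q value and column 10 the summit offset in bp. The −log10 q sat at its maximum of 3.82 for 3302 pooled regions and was not used to rank. The aligner, the caller and the IDR threshold are not stated by the labels or files. The dm3 lists were not used.

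Positions came from Ensembl release 115 (BDGP6.54) and RefSeq Release 6, whose arms contain every region. Classes were assigned in the order promoter, 5′ untranslated, 3′ untranslated, coding exon, intron, intergenic. Replicate partners are the strongest regions with a summit within 200 bp. Members and gene lists were chosen with earlier results of these data known. Every member is named, as is each further trithorax gene with an IDR summit in its window and the gene of the nearest start site. Those without one were named after their values were seen, as were Taf6 and CG31125. One listed gene, lid, was found under its current name Kdm5. Alternatives were other windows, promoter widths, lists and replicates. The placement code was checked on 200 simulated summits drawn within 500 bp of the only start site of a gene. All 200 were counted in that promoter, which correct code had to give. The order of classes and the nearest genes were not checked in this way. Python 3.11.15, numpy 2.4.6, pandas 2.3.3, scipy 1.17.1 and matplotlib 3.10.9 were used.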

Additional observations from a re-analysis of the deposited data

How the results depend on the processing

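With 5 kb flanks, and with overlap instead of summits, 10 of the 10 genes had an IDR peak. With the gene body alone, 5 genes, 6 summits, 1 methyltransferase gene and 2 remodeller genes had one, against 7.54% of all genes. The counts were again 5, 6, 1 and 2 when the nearest start site had to be the gene's own (11.7% of all genes), and the promoter count fell to 1. With the IDR list cut to its upper 50%, 5 genes had a summit in the window, against 11.9% of all genes. The other counts were then 5 summits, 2 remodeller genes and 0 promoters. With the 5000 strongest pooled regions, 10 of the 10 genes had a summit in the window, against 35.0% of all genes. The windows then held 22 summits, and 6 genes had one at an own promoter, against 19.7% of all genes. The share of all genes was 30.6% with 5 kb flanks and 21.5% by overlap.

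Summits per 10 kb in methyltransferase genes were 0.249 in the body alone, 0.428 with 5 kb flanks, 0.383 in the upper 50% of the IDR list, 0.959 in the 5000 strongest and 0.192 with own starts only, and in remodeller genes 0.227, 0.390, 0.192, 1.06 and 0.192, so that the groups were equal to 3 digits with own starts only and stood in the other order in the 5000 strongest. The median highest signal of methyltransferase genes was 24.6 in the body alone and with own starts only, and 153 with ash2 added. That of remodeller genes was 109 in the body alone, so the order of the groups turned there. The median of remodeller genes with own starts only could not be formed, since brm then had no region.

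With 1 replicate left out at a time, the 10 genes with a peak became 8 to 9, promoters 2 to 3 and summits 10 to 13. The promoters were those of Utx and fs(1)h without replicate 1, and of Utx, brm and osa without replicate 3. Methyltransferase genes with a peak were 2 to 3 and remodeller genes 3 to 4. Summits per 10 kb ranged from 0.575 to 0.767 in methyltransferase and from 0.288 to 0.576 in remodeller genes. Median highest signals ranged from 95.0 to 118 and from 44.4 to 99.9, on each replicate's own scale, and the share of all genes from 20.6 to 21.0%. Without replicate 1, ash2 and brm lost their peak, and without replicate 3, trr did. The cause was not tested. No paired analysis was possible because there is 1 group. Depth is unknown, so a gene without a peak cannot be called unbound.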
